A study of Mus musculus with 12 samples.

Results

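The growth of mouse oocytes that lack Eed was followed by RNA sequencing in 4 libraries of the PRC2 conditional knockout (cKO), 2 of non-growing oocytes at postnatal day 6 (P6) and 2 of growing oocytes at postnatal day 7 (P7). These 4 are part of 12 libraries in 6 groups. Genes with at least 1 TPM (TPM is a level per transcript length that sums to the same total in each library) in at least 2 of the 4 libraries were taken, 13243 of 55385 gene models, and growing were compared with non-growing oocytes. The cKO oocytes carried EedF/-, a floxed and a deleted allele, together with Ddx4-Cre, a recombinase expressed in germ cells, and were taken from ovaries. The control libraries, EedF/+ with the same Ddx4-Cre, came at the same 2 stages, 2 libraries each, so that these oocytes have 1 allele that the recombinase can remove. The day of collection changed together with the growth stage, and the effects of the 2 cannot be told apart. The sources used here do not give how non-growing and growing oocytes were separated, nor whether replicates are different animals, so that p-values measure only the spread between these libraries, which may be technical.

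Eed is the subunit of Polycomb repressive complex 2 (PRC2) that binds trimethylated lysine 27 of histone H3 and is needed for the complex to add that mark, which keeps genes silent. Oocytes in primordial follicles are small and arrested in meiotic prophase. When a follicle is activated its oocyte grows, builds the zona pellucida, secretes growth factors for the surrounding granulosa cells and stores proteins and messenger RNA for the embryo.

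Eed itself (chromosome 7, 89954654 to 89980983, GRCm38) was low at both stages of the cKO. It was at 12.1 and 10.3 TPM in the non-growing and 9.64 and 10.1 TPM in the growing cKO libraries, against 88.9 and 90.5 TPM in the non-growing and 62.3 and 60.5 TPM in the growing control libraries, and cKO and control did not overlap at either stage. Its growth change in the cKO was -0.16 on the log2(TPM + 1) scale (SE 0.12, limma adjusted p = 0.243) and turned to 0.27 (limma adjusted p = 0.107) after trimmed-mean scaling, so that no direction was called. The floxed exons are not named in the sources used here, and reads from the rest of the gene would still count toward these values. Most other PRC2 subunits stayed measurable during growth. Ezh2, the main methyltransferase of the complex, rose from 73.8 and 59.6 to 119.9 and 106 TPM (log2 change 0.76, limma adjusted p = 0.00141), and Rbbp7, a histone-binding subunit, from 624 and 599 to 1241 and 1366 TPM. Its paralog Rbbp4 fell from 174 and 169 to 57.7 and 75.4 TPM, and Mtf2, an accessory subunit, from 118 and 123 to 61.4 and 60.8 TPM. Of 10 tested PRC2 genes 3 rose, 2 fell and 5 did not pass, where of all genes tested 20.9% rose and 48.5% fell. Another 2 listed genes were untested, at 0.83 TPM or less in the cKO libraries, and Ezhip had no gene model.

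The label of the cells was compared with their markers. All 7 oocyte genes listed for this check (Ddx4, Dazl, Figla, Nobox, Zp3, Gdf9 and Ooep) were tested, and together they summed to 4189.6 and 4251 TPM in the non-growing and 9966 and 12516 TPM in the growing cKO libraries. The larger sum was no rise of every member. As deposited 2 of the 7 rose (Zp3 and Gdf9), 2 fell, Figla among them, and 3 did not pass (all genes 20.9% higher and 48.5% lower). After scaling 4 rose and 1 fell (all genes 30.1% and 34.4%). Markers of other ovarian cells were low beside the sums of the oocyte genes, though not all were absent. Granulosa markers, of which 3 of 13 were tested, summed to 1.94 to 2.47 TPM in the non-growing and 8.53 to 10.6 TPM in the growing cKO libraries, where Foxl2 reached at most 0.02 and Amh 0.13 TPM. The tested members, which passed through the growing oocytes alone, were Nr5a2, a nuclear receptor gene (0.38 and 0.16 to 4.69 and 6.03 TPM, which rose), Inha and Cyp19a1 (both under 2 TPM). Stroma and theca markers summed to 4.09 to 5.68 and 0.79 to 1.34 TPM (1 of 11 tested), endothelial markers to 4.23 to 11.9 and 7.14 to 11.9 TPM (1 of 7), immune markers to 0.76 to 1.71 and 4.83 to 7.14 TPM (2 of 10) and erythroid markers to 0.26 to 0.40 and 0.14 to 0.47 TPM (0 of 6). C1qa, Hbb-bs and Hbb-bt were listed at 0 in all 4 cKO libraries, and Ptprc was at 0.10 TPM or less. The tested immune markers both rose and passed through the growing oocytes alone. C1qb went from 0.50 and 0.17 to 3.54 and 5.55 TPM and Cd68 from 0.41 and 0.34 to 1.2 and 1.5 TPM. Dcn, the tested stroma marker, fell from 4.48 and 3.55 to 0.55 and 0.33 TPM. Pecam1, the tested endothelial marker, did not pass (3.3 and 9.11 to 5.26 and 9.58 TPM). In pooled oocytes a lower value can mean fewer cells that contain an RNA or less of it in each cell, and these cannot be told apart. The part of these markers in the results was not tested.

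The 2 growing cKO libraries were the least alike of the 4 pairs of replicates. Replicate 2 had 12480 gene models at 1 TPM or more against 12022 in replicate 1, its values were higher by a median of 0.14 (log2, SD 0.51 across genes), and the 2 correlated at 0.97 across genes against 0.98 to 0.99 for the other pairs. The depth of the libraries is unknown, since TPM keeps no read number. Scaling by a trimmed mean also set the 2 apart, with factors of -0.11 in replicate 2 and -0.35 in replicate 1 (log2).

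During growth without Eed, 2767 genes were higher (20.9% of those tested) and 6417 were lower (48.5%) at a limma adjusted p under 0.05, and most tested genes of the egg coat rose while most of meiotic prophase, ribosomes and mitochondria fell. The median change of all genes was -0.49 (log2) as deposited. TPM values are shares, and the part of the total held by protein-coding genes was smaller in the growing libraries (values are given with the gene classes). After trimmed-mean scaling, which sets the bulk of genes level between libraries, the median was -0.08, and 3988 genes were higher (30.1%) and 4550 lower (34.4%). Calls in either direction made up 69.3% as deposited and 64.5% after scaling. Values of the 2 stages did not overlap in 25.4% of genes upward and 55.4% downward. Of all calls the share that was higher thus moved from 30.1% to 46.7%. Of the genes tested, 10214 were at 1 TPM or more in all 4 cKO libraries, while 991 passed the filter only through the growing and 930 only through the non-growing oocytes and had to differ. Such a gene lies under 1 TPM in both libraries of 1 stage and reaches it in both of the other. Any gene named below with such values had its direction set by the filter. Where a list below holds such members and nothing more is said, they number 1 to 4: 4 in the pluripotency, 3 each in the mRNA storage, imprinted and immediate-early, 2 each in the maturation and Id, and 1 each in the secreted factor, maternal complex, transcription factor, Kit, calcium, PRC1, glycolysis, oxidative phosphorylation and mitochondrial mRNA lists. More than 4-fold changes were called for 895 genes upward and 735 downward as deposited, and for 1160 and 329 after scaling. Without replicate 1 of the cKO growing oocytes 3208 genes were higher and 5787 lower, and without replicate 2 the numbers were 2335 and 6597.

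**Figure D1:**
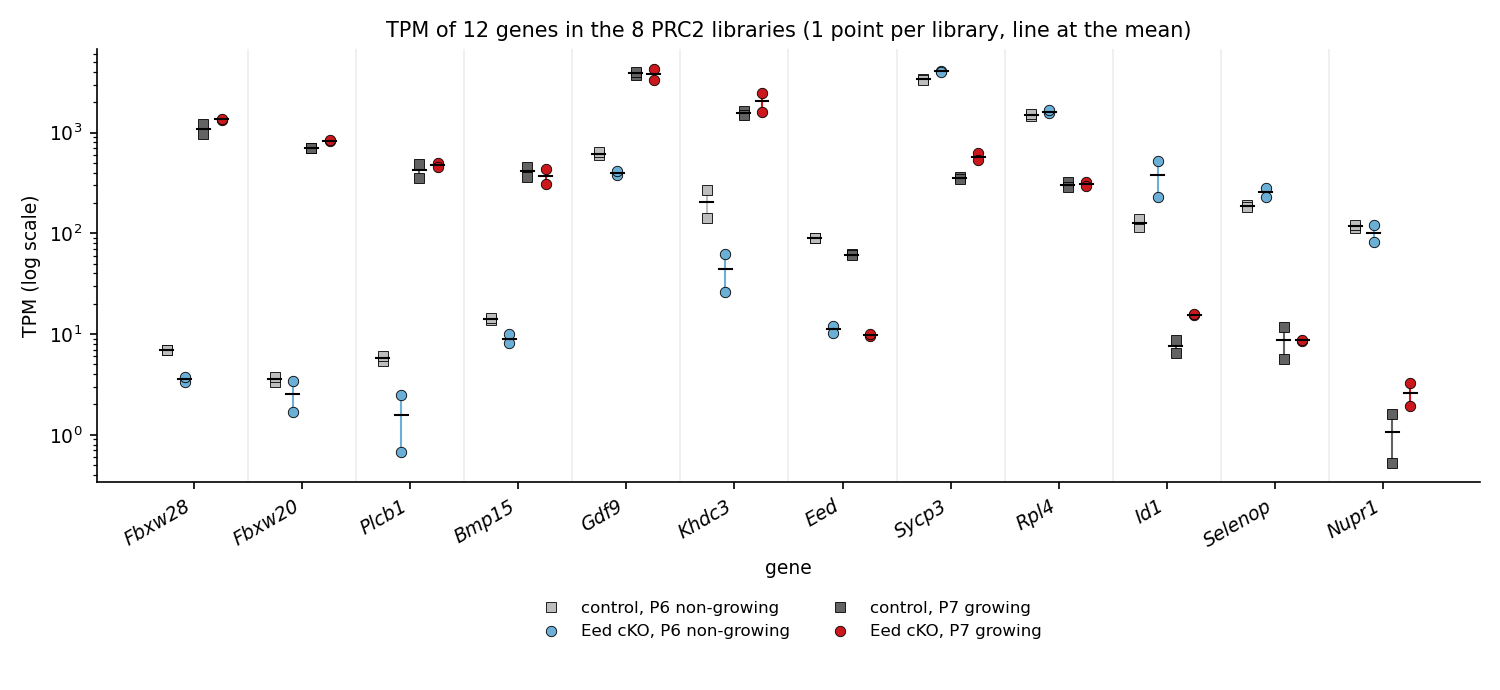
Levels (TPM, log axis) of 12 genes in the 8 PRC2 libraries, with 1 point per library and a line at the mean of the 2 replicates; squares are control and circles Eed cKO. Fbxw28 and Plcb1 lay under 7 TPM in all 4 non-growing and over 350 TPM in all 4 growing libraries, Nupr1, Selenop and Id1 ran the other way, and Eed was lower in the cKO at both stages.

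With predicted, unnamed and microRNA models left out, the 10 largest rises were those of Fbxw28, Fbxw20, Fbxw14, Plcb1, Fbxw19, Serpinc1, C87977, Obox2, Obox5 and Obox1, and the largest falls included those of Nupr1, Selenop, Id1, Teddm2, Krt83, Crabp1, Tepp, Hist1h2ap and Ptpro. The plot of single genes by library shows members from both ends together with oocyte, meiotic and ribosomal genes. Serpinc1, which encodes antithrombin, was at 1.29 and 1.51 TPM in the non-growing and 292 and 436 TPM in the growing cKO libraries (log2 change 7.22), and part of its sequence is shared with Zbtb37. C87977, 1 of a family of near-identical genes, was at 2.13 and 1.03 and then 345 and 354 TPM (log2 change 7.12). Both were low but measurable before growth, also in the non-growing control libraries (1.48 and 3.17 TPM for Serpinc1, 4.17 and 4.89 TPM for C87977). At the other end Krt83, a hair keratin gene, fell from 37.4 and 42.7 to 0.87 and 1.59 TPM, Ptpro, a receptor tyrosine phosphatase, from 27.8 and 37.9 to 1.09 and 0.98 TPM and Tepp from 18.5 and 27.9 to 0.41 and 0.33 TPM, so that all 3 ended at or below 1.6 TPM. The 12 protein-coding genes at the highest levels in growing cKO oocytes, chosen after their values were seen, were Hddc3, Dppa3, Ldhb, Ubb, Dppa5a, Zp3, H1f8, Sub1, Gdf9, Fbxw24, Hexdc and Tmsb10. Hddc3 led them at 17133 and 15322 TPM after 1232 and 1141 TPM in non-growing oocytes (log2 change 3.77), with a pseudogene copy that makes its level uncertain. H1f8, the linker histone of oocytes, rose from 411 and 821 to 3689 and 4510.0 TPM, while Ubb, a polyubiquitin gene, fell from 13867 and 21658 to 8046 and 7065 TPM.

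Fbxw genes, 13 of 14 of them in a cluster on chromosome 9, which encode F-box proteins with WD repeats and are expressed in oocytes, made the largest rises. Fbxw28 (chromosome 9, 109322886 to 109339659) was at 3.33 and 3.77 TPM in the non-growing and 1335 and 1364 TPM in the growing cKO libraries (log2 change 8.21, SE 0.12, limma adjusted p = 2.72e-07). Fbxw20 was at 1.69 and 3.43 and then 822 and 844 TPM (log2 change 7.92), and Fbxw14 at 5.38 and 3.38 and then 1012 and 1086 TPM (log2 change 7.63). In each of these genes the lowest growing library lay far above the highest non-growing one. All 14 genes were tested and 13 rose, with Fbxw17, which lies on chromosome 13, as the exception (12.6 and 15.4 to 16.7 and 22.1 TPM, limma adjusted p = 0.092), and after scaling all 14 passed. Their median change was 4.72 against -0.49 for all genes tested, of which 20.9% rose (30.1% after scaling). Not all began near 0: Fbxw24 rose from 179.9 and 206 to 3579 and 3428 TPM and was the highest member in growing oocytes, while Fbxw27 rose least of those called, from 138 and 139.8 to 733 and 709 TPM. The transcripts of Fbxw14 and Fbxw28 are 99.1% identical over 79.4% of Fbxw28, so that the split of reads between the 2 is uncertain.

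The 3 members with the largest rises share much of the 250 bases before their starts, shown here 5′ to 3′ from RefSeq (GRCm38.p6). Capitals mark every match to CANNTG, the E-box, the general motif of basic helix-loop-helix factors such as the oocyte factor Figla. It reads the same on both strands, and neighbouring matches do not overlap.
Fbxw28 (chr9:109339660-109339909, minus strand): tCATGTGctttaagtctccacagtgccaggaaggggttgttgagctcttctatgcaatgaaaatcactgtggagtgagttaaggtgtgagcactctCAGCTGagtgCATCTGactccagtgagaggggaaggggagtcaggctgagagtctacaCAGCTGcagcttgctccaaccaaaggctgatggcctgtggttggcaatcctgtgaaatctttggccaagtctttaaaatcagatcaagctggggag
Fbxw20 (chr9:109234755-109235004, minus strand): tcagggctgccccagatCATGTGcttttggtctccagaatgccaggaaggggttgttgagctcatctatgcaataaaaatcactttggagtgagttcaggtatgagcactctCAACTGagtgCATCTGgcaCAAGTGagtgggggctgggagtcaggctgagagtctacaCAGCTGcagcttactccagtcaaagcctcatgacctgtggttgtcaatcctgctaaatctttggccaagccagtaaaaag
Fbxw14 (chr9:109287677-109287926, minus strand): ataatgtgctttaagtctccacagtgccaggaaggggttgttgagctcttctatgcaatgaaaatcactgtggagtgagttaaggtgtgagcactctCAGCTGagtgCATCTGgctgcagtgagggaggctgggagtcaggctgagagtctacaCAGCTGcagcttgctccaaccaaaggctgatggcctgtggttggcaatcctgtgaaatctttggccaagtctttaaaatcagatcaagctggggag
Fbxw28 and Fbxw14 were identical at 243 of 247 aligned bases (98.4%), and Fbxw28 and Fbxw20 at 205 of 234 (87.6%). The 3 windows held 4, 5 and 3 matches. A match is common, as 66.2% of all 32851 promoter windows of this length held at least 1, and 59% of those of genes tested, 65.3% of those of genes higher and 57.7% of those of genes lower in cKO growth. Its form CAGCTG, present in all 3 windows, stood in 13% of all windows, in 12.7% of those of genes tested, in 17% of those of higher and in 10.9% of those of lower genes.

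Obox genes encode homeobox proteins of the oocyte and early embryo, and only 4 of the 8 were tested. All 4 passed the filter through the growing oocytes alone, so that their rise carries no count of support. Obox1 was at 0.070 and 0.13 TPM in the non-growing and 112 and 139 TPM in the growing cKO libraries (log2 change 6.84), Obox2 at 0.050 and 0.050 and 136 and 128 TPM (log2 change 6.99), and Obox5 at 0.11 and 0.10 and 122 and 133 TPM (log2 change 6.86). The 3 genes were thus nearly silent before growth and at like levels after it, with transcripts of Obox1 and Obox2 98.8% identical. The other 4 members reached at most 0.19 TPM. The windows before Obox1 and Obox5, chosen after their values were seen, are shown with TATAA (either strand) in capitals, a form of the TATA box. Both lie wholly or mostly inside the spans of their gene models, so that neither start is the outermost one.
Obox1 (chr7:15547007-15547256, plus strand): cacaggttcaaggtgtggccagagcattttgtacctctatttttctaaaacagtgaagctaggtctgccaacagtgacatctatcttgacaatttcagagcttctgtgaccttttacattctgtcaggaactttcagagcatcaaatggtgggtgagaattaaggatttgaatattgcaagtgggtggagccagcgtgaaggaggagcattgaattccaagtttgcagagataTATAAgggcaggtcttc
Obox5 (chr7:15750120-15750369, plus strand): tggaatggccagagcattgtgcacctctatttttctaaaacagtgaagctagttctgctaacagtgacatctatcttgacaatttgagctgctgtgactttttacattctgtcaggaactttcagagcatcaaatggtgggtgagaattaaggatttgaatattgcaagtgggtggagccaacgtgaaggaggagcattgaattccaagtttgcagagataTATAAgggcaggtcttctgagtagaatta
They matched at 228 of 238 aligned bases (95.8%), and in both TATAA lay within 50 bases of the start. Of all windows 22.8% held TATAA, of those of genes tested 14% and of those of genes higher in cKO growth 16%.

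Most genes of the egg coat and of the factors that the oocyte secretes rose. Among all genes tested 20.9% rose and 48.5% fell. Of 9 egg coat genes 8 rose and Izumo1r, the egg receptor for sperm Izumo1, did not pass (24.5 and 37.3 to 27 and 33.3 TPM), with a median change of 2.40. Zp3, a zona pellucida protein, was at 1356 and 1351 and then 5178 and 6483 TPM (log2 change 2.10, SE 0.11, limma adjusted p = 8.09e-06), while Zp2 rose only from 1348 and 1649 to 2267 and 2646 TPM. Oosp1, an oocyte-secreted protein, rose from 2.29 and 1.83 to 237 and 241 TPM (log2 change 6.30), and Astl, the protease ovastacin that cleaves Zp2 after fertilization, from 30.2 and 53.4 to 508 and 989 TPM. All of these were separated between the stages in every library. Among secreted factors 5 of 6 tested genes rose. Gdf9, which supports granulosa cells, went from 377 and 420.3 to 3329 and 4284 TPM (log2 change 3.24), its partner Bmp15 from 8.07 and 9.98 to 308 and 430.3 TPM (log2 change 5.19) and Fgf8 from 0 and 0.45 to 54.4 and 105 TPM. Fgf8 passed the filter only through growing oocytes and had to rise. Kitl, the ligand of the receptor Kit, did not pass (2.87 and 1.8 to 1.93 and 2.17 TPM).

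Most maternal-effect genes rose as well. Among all genes tested 20.9% rose, and 30.1% after scaling. The subcortical maternal complex is a protein assembly under the egg surface, and 6 of its 8 tested genes rose (8 after scaling). Khdc3 went from 26 and 62.2 to 1583 and 2498 TPM (log2 change 5.59, SE 0.45, limma adjusted p = 4.17e-05), Zbed3 from 165 and 217 to 1438 and 2601 TPM, and Padi6 from 573 and 801 to 2008 and 3431 TPM. The 3 were higher in replicate 2 than in replicate 1 of the growing oocytes. Ooep, another subunit, was already high before growth and did not pass (467 and 435 to 380.4 and 421 TPM, log2 change -0.17 as deposited and 0.31 with a limma adjusted p of 0.0484 after scaling). Of 10 tested genes of the Nlrp4, Nlrp9 and Nlrp14 families 9 rose. Nlrp9b (0.14 and 0.61 to 115 and 140.1 TPM) and Nlrp9c (0.14 and 0.17 to 84.1 and 76.4 TPM) started near 0, while Nlrp14 rose from 699 and 662 to 2084 and 2371 TPM. Among the 10, 3 passed the filter only through growing oocytes.

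Genes that store, silence or remove maternal RNA split into 2 sets. Of 20 tested genes 13 rose and 4 fell (all genes 20.9% and 48.5%), with a median of 0.94. Among those that rose were the RNA-binding factors Zar1 (7.9 and 16.6 to 224 and 599.8 TPM) and Zar1l (0.50 and 0.35 to 98.3 and 124 TPM), the oocyte poly(A)-binding proteins Pabpn1l (3.1 and 3.47 to 289 and 361 TPM, log2 change 6.24) and Pabpc1l (0.18 and 0.25 to 26.1 and 33.7 TPM), and Btg4 (263 and 305 to 524 and 627 TPM), which recruits the CCR4-NOT deadenylase. Zar1l and Pabpc1l passed the filter only through growing oocytes and had to rise. Zar1, Eif4e1b (119 and 287 TPM in growing oocytes) and Dcp1a (56.2 and 125 TPM) were all more abundant in replicate 2 than in replicate 1. Cnot7, a catalytic subunit of that deadenylase, fell from 599 and 644 to 141 and 143 TPM (log2 change -2.12, SE 0.07, limma adjusted p = 2.39e-06). Ddx6, an RNA helicase of storage granules, fell from 30 and 38.2 to 9.23 and 11.8 TPM. Cpeb1, which controls poly(A) tails, rose from 176 and 265 to 439 and 824 TPM.

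Plcb1, a phospholipase C that produces inositol trisphosphate and diacylglycerol, had the largest rise by the naming rule outside the Fbxw genes. Plcb1 (chromosome 2, 134786067 to 135475258) was at 2.49 and 0.68 TPM in the non-growing and 501 and 455 TPM in the growing cKO libraries (log2 change 7.63, SE 0.32, limma adjusted p = 4.36e-06), and the stages did not overlap. Of its pathway list, 16 of 26 genes were tested, 6 rose and 5 fell (all genes 20.9% and 48.5%). Plcb1 was alone in its size: the next rises were those of Stim2, a calcium sensor of the endoplasmic reticulum (5.5 and 7.18 to 23.4 and 23 TPM), and Camk2g, a calmodulin kinase (11.5 and 11.7 to 34.3 and 48.5 TPM). Itpr1, the receptor that opens to inositol trisphosphate, fell from 23.1 and 27.8 to 5.99 and 10 TPM, Trpm7, a cation channel, from 27.6 and 29 to 7.75 and 8.96 TPM, and the related phospholipase Plcb4 from 7.48 and 7.72 to 2.13 and 1.88 TPM.

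DNA methylation of the mouse egg is laid down during growth, as background. Dnmt3l, the cofactor of that reaction, was at 0.090 and 0 TPM before and 21.9 and 25.7 TPM after growth began (log2 change 4.57, SE 0.17, limma adjusted p = 3.20e-06). Dnmt3l passed the filter only through growing oocytes, so that its direction was set and its p-value lends no separate support. Its partner enzyme Dnmt3a rose from 16.4 and 16.6 to 45 and 54.9 TPM and the maintenance enzyme Dnmt1 from 10.1 and 8.48 to 109 and 216 TPM. Of 14 tested genes of this list 9 rose and 3 fell (Tet2, Uhrf2 and Dppa3), and after scaling 10 rose and 1 fell; 3 of the 14 passed the filter only through growing oocytes and had to rise. Dppa3 encodes the factor Stella, which shields maternal methylation, and was the most abundant RNA of the list. It fell from 21574 and 22348 to 12265 and 10407 TPM as deposited (log2 change -0.96) but did not pass after scaling (log2 change -0.48, limma adjusted p = 0.0841). Uhrf1, a partner of Dnmt1, was at 66.7 and 226 TPM in the growing libraries and differed more between those 2 than between the non-growing ones (21.8 and 26.1 TPM). Of 19 tested enzymes of histone H3 methylation 11 fell and 2 rose, beside 48.5% lower and 20.9% higher of all genes, and 6 fell and 3 rose after scaling, beside 34.4% and 30.1%, so that the list lay near the background. Kdm5b, a demethylase of lysine 4, fell furthest (27.2 and 28.4 to 3.42 and 4.38 TPM). Kdm6a and Kdm6b, which remove methyl groups from lysine 27, were the 2 that rose (5.75 and 6.02 to 9.74 and 16.7 TPM and 0.53 and 1.02 to 2.52 and 3.31 TPM).

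PRC1 is the second Polycomb complex and marks histone H2A. Of 20 tested PRC1 genes 8 rose and 8 fell (all genes 20.9% and 48.5%). After scaling 10 rose and 3 fell (all genes 30.1% and 34.4%). Pcgf1, the defining subunit of a variant complex, rose from 53.1 and 47 to 537 and 560.2 TPM (log2 change 3.43, SE 0.10, limma adjusted p = 1.18e-06), which made it by far the most abundant of its family. Pcgf5 and Pcgf2, which define other forms of the complex, fell from 20.5 and 16.3 to 4.22 and 4.58 TPM and from 4.74 and 5.08 to 0.75 and 0.31 TPM. Rnf2, a catalytic subunit, was at 59.1 and 59.2 and then 34.5 and 49.1 TPM, a fall as deposited (log2 change -0.51) that did not pass after scaling (-0.04).

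Transcription factors of the primordial oocyte moved in both directions. Of 13 tested genes 6 fell and 1 rose (after scaling 4 and 3), near the shares of all genes, 48.5% lower and 20.9% higher. Figla was at 1281 and 1168 TPM in the non-growing and 437 and 415 TPM in the growing cKO libraries (log2 change -1.52, SE 0.10, limma adjusted p = 1.91e-05), and Sohlh2 at 82.7 and 105 and 26.3 and 36.1 TPM. Both encode basic helix-loop-helix factors that early oocytes need. Nobox (262 and 410.2 to 239 and 423 TPM) and Lhx8 (97.9 and 120.0 to 86.6 and 126 TPM), homeobox factors of the same stage, did not pass as deposited, and their log2 changes of -0.04 and -0.05 turned to 0.43 and 0.42 after scaling. The pathway of Kit, PI3K and mTOR awakens primordial oocytes. In it 9 of 21 tested genes fell and 2 rose (all genes 48.5% and 20.9%). After scaling 4 fell and 4 rose (all genes 34.4% and 30.1%). The exception in size was Tsc2, an inhibitor of mTOR, which rose from 116 and 99.6 to 2313 and 2018 TPM (log2 change 4.31, SE 0.10, limma adjusted p = 5.94e-07). Kit and Foxo3, its receptor and its brake on growth, did not pass: Kit was at 77.6 and 93.9 and then 49.8 and 100 TPM and Foxo3 at 12.4 and 17 and then 9.47 and 15.6 TPM.

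Most tested genes of meiotic prophase fell. Sycp3, a lateral element of the synaptonemal complex, went from 4127 and 4024 to 623 and 534 TPM (log2 change -2.82, SE 0.09, limma adjusted p = 1.41e-06), and Syce1, of its central element, from 570.0 and 622 to 69.1 and 58.7 TPM (log2 change -3.20). Among all genes tested 48.5% fell and 20.9% rose, with a median of -0.49, and 34.4% fell and 30.1% rose after scaling. Of 12 tested axis and synaptonemal genes 7 fell and 0 rose, with a median of -1.86. The 7 of 12 that fell thus lay near the background as deposited. After scaling the same number fell while Syce2 and Rad21l rose. Of 22 recombination genes 16 fell and 1 rose, and 12 fell and 4 rose after scaling; 4 of the 22 passed the filter only through non-growing oocytes and had to fall. Spata22, which acts on single-stranded DNA, fell from 20.6 and 16.8 to 1.01 and 1.53 TPM, and Tex11, a crossover factor, from 72.6 and 72.1 to 10.3 and 10.7 TPM. Msh4, a crossover factor too, was the 1 that rose as deposited, from 25.5 and 24.2 to 203 and 195 TPM (log2 change 2.95, SE 0.10, limma adjusted p = 2.32e-06). Of the genes of meiotic arrest and maturation 9 of 19 rose and 4 fell (all genes 20.9% and 48.5%). Mos, a kinase of the later arrest, rose from 40.2 and 42.5 to 186 and 239.6 TPM and Aurkc, a meiotic kinase, from 3.25 and 3.2 to 78.4 and 62.9 TPM. Cdk1, the kinase of entry into division, fell from 419.8 and 410.2 to 149 and 155 TPM. For meiotic entry 4 of 7 genes were tested, of which Rbm46 and Zglp1 fell.

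**Figure D2:**
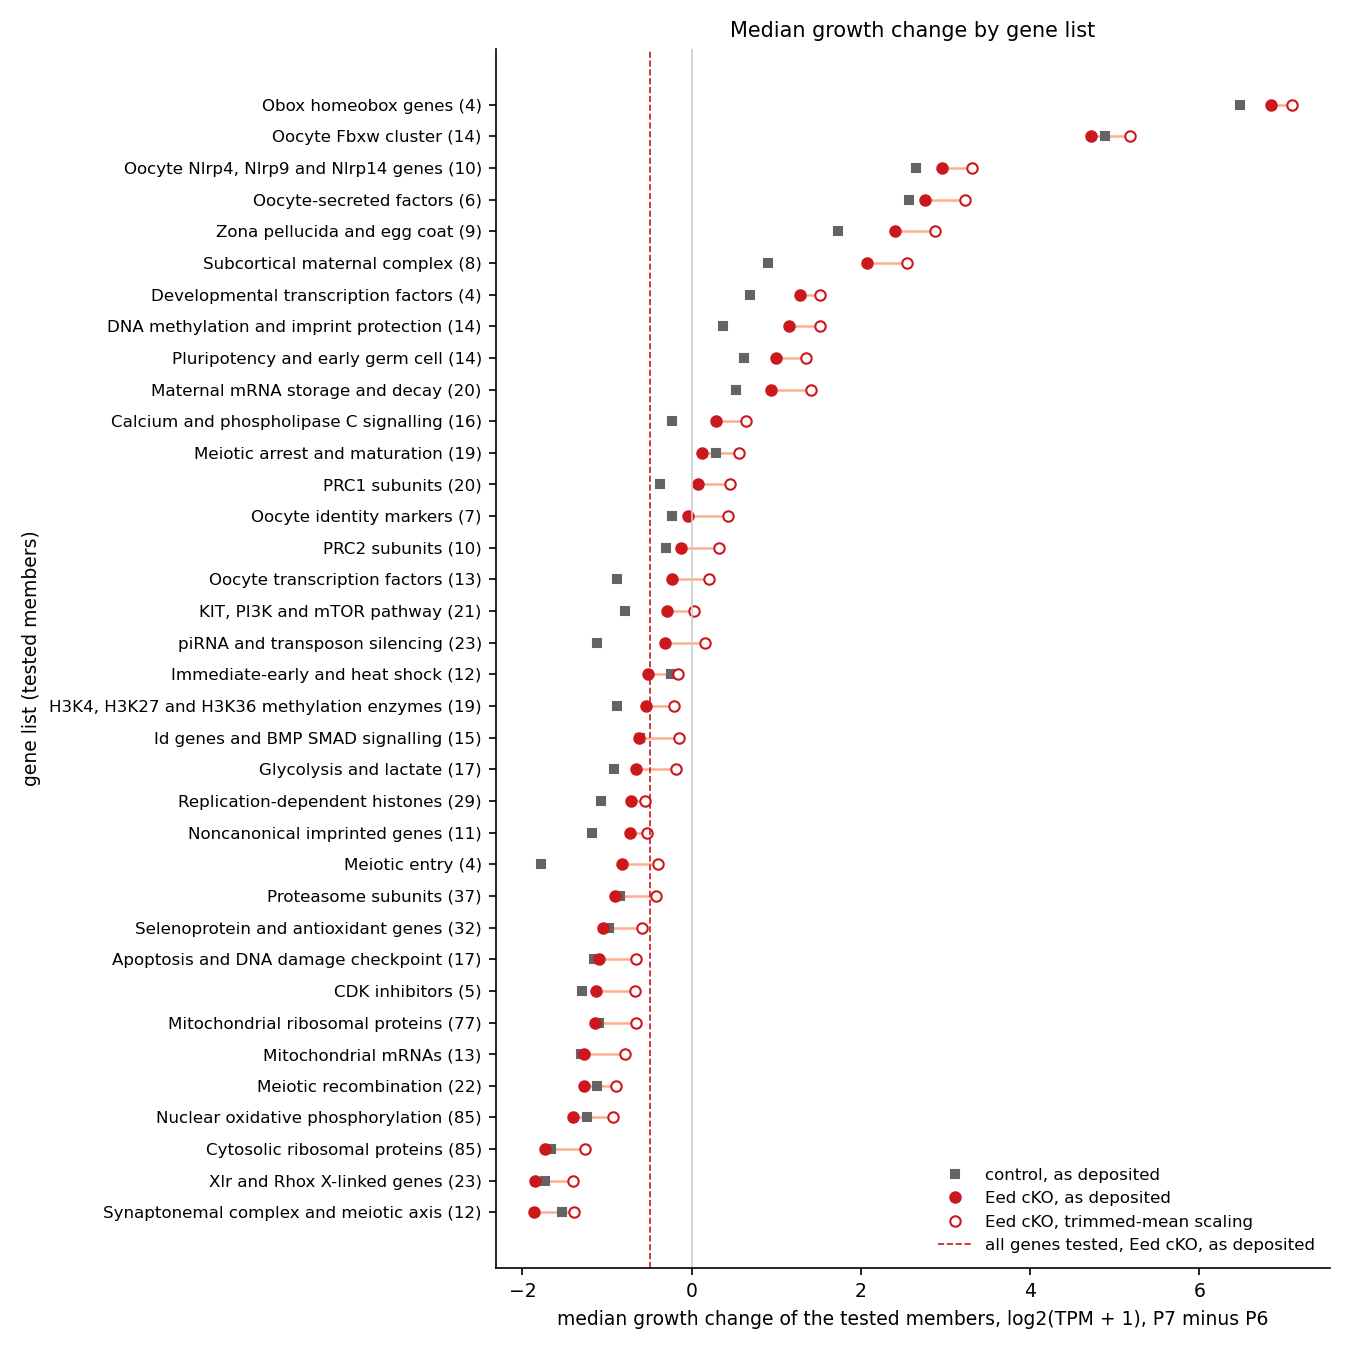
Median growth change (log2 of TPM + 1, P7 minus P6) of the tested members of each gene list with at least 4 tested, whose number stands in brackets; filled circles are Eed cKO as deposited, open circles Eed cKO after trimmed-mean scaling and squares control. The Obox, Fbxw, Nlrp, secreted and egg coat lists lay furthest to the right, synaptonemal, Xlr and Rhox and ribosomal lists furthest to the left, and scaling moved the cKO medians to the right.

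Selenop encodes a secreted selenoprotein that carries selenium, and it fell furthest but 1 among named genes. Selenop (chromosome 15, 3268547 to 3280508) was at 284 and 229 TPM in the non-growing and 8.55 and 8.81 TPM in the growing cKO libraries (log2 change -4.73, SE 0.28, limma adjusted p = 1.18e-05), with every growing library far below every non-growing one. Other selenoprotein and antioxidant genes moved less. Of the 32 tested genes of the list 21 fell and 3 rose (all genes 48.5% and 20.9%), with a median of -1.05 against -0.49 for all genes. After scaling 17 fell and 5 rose (all genes 34.4% and 30.1%), with a median of -0.59 against -0.08. Prdx4 fell from 124 and 99.7 to 26.1 and 24.2 TPM and Gpx4 from 510.1 and 542 to 192 and 226 TPM, both of which remove peroxides. Txnrd1, a thioredoxin reductase, and Prdx2 rose instead, from 3.45 and 3.88 to 17 and 22 TPM and from 229.7 and 231 to 536 and 585 TPM. Nupr1, a stress-response regulator of transcription, had the largest fall by the naming rule, from 82.6 and 120.4 to 3.23 and 1.94 TPM (log2 change -4.84). Crabp1, which binds retinoic acid, fell from 93.1 and 118 to 4.8 and 5.0 TPM.

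The windows of 250 bases before the starts of 3 genes with the largest falls that the RefSeq table holds are shown for comparison with those of the Fbxw genes, with TATAA and its reverse complement TTATA in capitals. For Selenop the first of its 3 listed starts is used. All 3 windows lie inside the spans of the gene models behind the values, so that these starts are not the outermost ones.
Nupr1 (chr7:126625471-126625720, minus strand): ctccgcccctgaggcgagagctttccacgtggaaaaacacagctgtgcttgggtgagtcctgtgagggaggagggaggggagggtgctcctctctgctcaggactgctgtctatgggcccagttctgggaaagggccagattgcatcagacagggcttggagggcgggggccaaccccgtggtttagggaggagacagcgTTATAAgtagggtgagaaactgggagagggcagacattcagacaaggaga
Selenop (chr15:3270517-3270766, plus strand): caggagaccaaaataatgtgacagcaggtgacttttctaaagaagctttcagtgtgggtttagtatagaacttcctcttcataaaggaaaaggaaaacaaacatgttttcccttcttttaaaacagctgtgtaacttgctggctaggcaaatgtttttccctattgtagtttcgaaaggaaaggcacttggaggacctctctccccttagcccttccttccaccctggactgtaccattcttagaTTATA
Teddm2 (chr1:153851196-153851445, minus strand): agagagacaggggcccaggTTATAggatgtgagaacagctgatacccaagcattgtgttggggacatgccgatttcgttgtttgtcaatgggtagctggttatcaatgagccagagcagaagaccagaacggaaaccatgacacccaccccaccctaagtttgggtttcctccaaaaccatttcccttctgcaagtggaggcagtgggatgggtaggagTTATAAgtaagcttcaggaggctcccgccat
A match stood within 50 bases of the RefSeq start used in all 3, that of Selenop being TTATA from base 246 of 250. Over the whole 250 bases, a wider measure, 14.2% of the windows of genes lower in cKO growth held a match. The share was 14% for all genes tested. TATAA was 1 of several motifs searched. In the 3 Fbxw windows it had 0 matches. CANNTG matched 2, 4 and 2 times in these 3 windows.

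Id1 encodes an inhibitor of basic helix-loop-helix factors and is a usual target of BMP signals. Id1 (chromosome 2, 152736251 to 152737410) was at 228 and 526 TPM in the non-growing and 15.5 and 15.7 TPM in the growing cKO libraries (log2 change -4.39, SE 0.36, limma adjusted p = 4.17e-05). The 2 non-growing libraries differed widely from each other, and both lay above all growing ones. Id2 behaved alike (202 and 413 to 27.8 and 24.8 TPM, log2 change -3.41), Id4 fell from 1.24 and 1.72 to 0.31 and 0.13 TPM, and Id3 moved least (80.9 and 115 to 56.6 and 68.6 TPM, a fall as deposited that did not pass after scaling, limma adjusted p = 0.374). After scaling 4 of 15 tested genes of the Id and SMAD list fell and 3 rose (all genes 34.4% and 30.1%). As deposited 9 fell and 2 rose (all genes 48.5% and 20.9%). The rises were those of Bmpr1b, a BMP receptor (16.6 and 18.6 to 38.5 and 40.1 TPM), and Smad3, a transducer of activin and TGF-beta signals (1.99 and 3.21 to 4.09 and 6.23 TPM).

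Nearly all tested genes of cytosolic ribosomes and of nuclear oxidative phosphorylation fell, while glycolytic genes moved in both directions. Of 85 tested cytosolic ribosomal protein genes 84 fell and 0 rose, with a median of -1.73 (-1.26 after scaling, when 77 fell). Rpl4 went from 1572 and 1662 to 325 and 294 TPM (log2 change -2.38). Nuclear genes of oxidative phosphorylation fell in 84 of 85 cases and rose in 0 (71 fell and 1 rose after scaling). Mitochondrial ribosomal protein genes fell in 69 of 77 cases (53 after scaling, with 4 that rose), and proteasome genes in 33 of 37 with 1 that rose (21 fell and 4 rose after scaling). Of 13 mitochondrial mRNAs 10 fell, among them mt-Co1 from 1231 and 1189 to 427 and 341 TPM. These are shares of a fixed total, of which protein-coding genes held less in growing oocytes, and the part of that change in these falls was not tested beyond the scaling. Glycolytic genes fell in 10 of 17 cases and rose in 2, and 6 fell and 6 rose after scaling. Of all genes tested 48.5% fell and 20.9% rose, and 34.4% and 30.1% after scaling, so that the glycolytic counts lay near the background. Ldhb, the lactate dehydrogenase subunit of oocytes, rose from 4619 and 4633 to 10372 and 11749 TPM, a direction that turned to -0.41 under quantile normalization, and a copy of its sequence makes the value uncertain. Slc2a1, a glucose transporter, rose too, and Hk1, a hexokinase, fell from 4.3 and 5.12 to 0.22 and 0.26 TPM.

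Replication-dependent histone genes, whose RNA mostly lacks a poly(A) tail, were low in number: 29 of 66 were tested, 14 fell and 7 rose (11 and 8 after scaling). These counts lay near the shares of all genes, 48.5% lower and 20.9% higher (34.4% and 30.1% after scaling). Summed over the list the level went from 1239 and 1181 TPM to 243 and 257 TPM. Hist1h2ap, an H2A gene with near-identical copies, made up most of it in non-growing oocytes and fell from 812 and 735 to 51.9 and 38.6 TPM (log2 change -4.08). H2ac15 fell from 23.9 and 20.2 to 1.47 and 0.43 TPM, while H2bc9 rose from 0.67 and 0.54 to 14.2 and 12.4 TPM and H2ac1 from 0.39 and 0.24 to 8.45 and 11.7 TPM. Of the 29, 5 passed the filter only through growing and 8 only through non-growing oocytes.

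The make-up of the libraries changed with growth. Protein-coding genes held 85.9% and 87.6% of the summed TPM in the non-growing and 59.3% and 62.6% in the growing cKO libraries. Models of the class TEC, which the annotation marks as awaiting experimental proof, rose from 2.5% and 2.26% to 25.9% and 23.3%, and lincRNA models from 2.09% and 1.96% to 6.48% and 6.04%. In the control the TEC share was 2.57% and 2.48% and 24.1% and 23.9%. The growing libraries of both genotypes were thus alike in this and apart from all non-growing ones. Among 11104 protein-coding genes tested 2086 rose and 5615 fell.

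**Figure D3:**
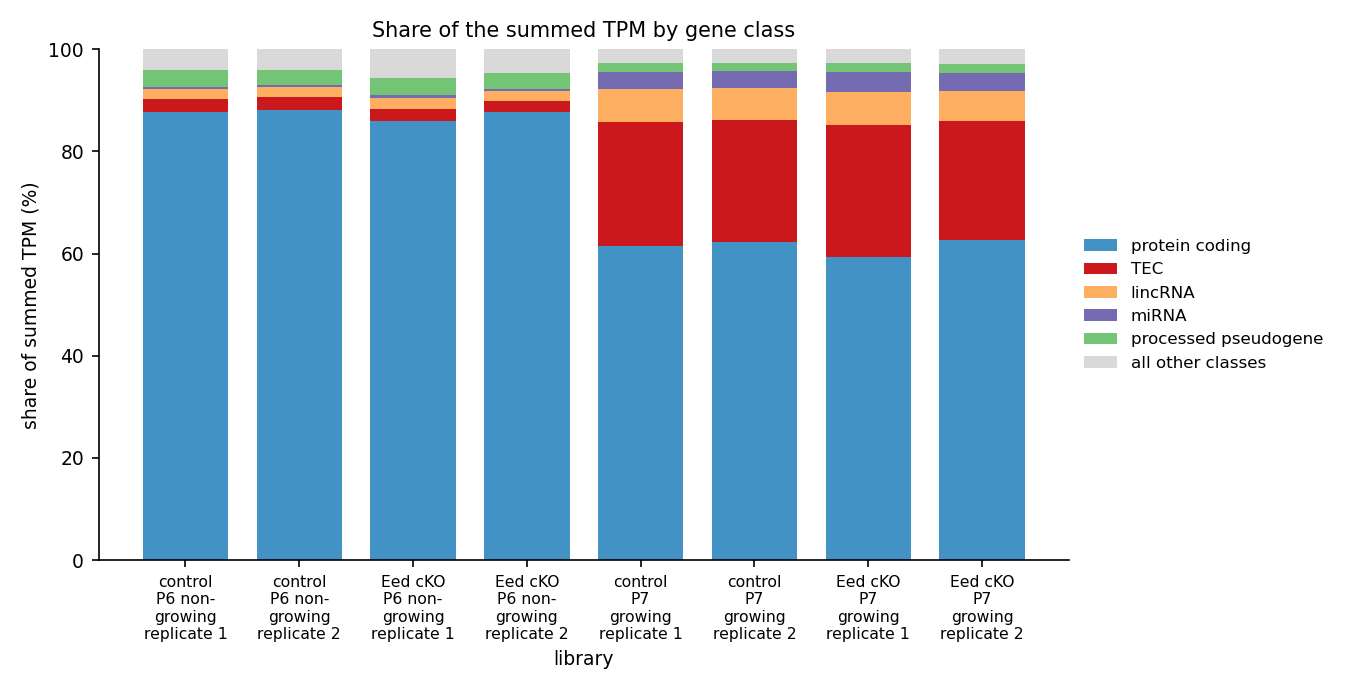
Share of the summed TPM (percent) held by each gene class of GENCODE vM21 in the 8 PRC2 libraries, as stacked bars. Protein-coding genes held 85.9% to 88.2% in the 4 non-growing and 59.3% to 62.6% in the 4 growing libraries, and TEC models most of the difference.

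A larger share of genes fell on the X chromosome than on any autosome, a difference that was not tested. Of 414 tested protein-coding genes on the X, 289 fell (69.8%) and 55 rose (13.3%), with a median of -0.95, while the medians of the 19 autosomes ran from -0.66 to -0.38 and their share of genes that fell from 44.3% to 57.2%. After scaling 55.6% of the X-linked genes fell, against 28.4% to 40.4% on autosomes. The control showed a median of -1.01 on the X and -0.83 to -0.58 on autosomes. Among the X-linked genes were the Xlr and Rhox families, clustered genes expressed in germ cells, of which 22 of 23 tested fell both as deposited and after scaling, 4 of them genes that passed the filter only through non-growing oocytes and had to fall. Rhox2a fell from 135 and 152 to 18.8 and 14.2 TPM and Xlr3b from 213 and 202 to 55.7 and 57.6 TPM, both members of families with near-identical copies. Rhox10 was the exception and rose from 4.44 and 4.35 to 17.5 and 18 TPM.

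Classes known as targets of PRC2 stayed mostly untested because they were so low. Only Hoxa7 of 39 Hox genes passed the filter (0.78 and 0.70 to 6.0 and 4.98 TPM, log2 change 1.90), 17 Hox genes were listed at 0 in all 4 cKO libraries, and the highest of the others reached 1.34 TPM. Of 59 other developmental regulators 4 were tested, among which Pax6 (listed at 0 in both non-growing libraries, then 3.52 and 5.14 TPM) and Tbx4 (0.50 and 0.93 to 4.44 and 6.24 TPM) rose and Msx2 (1.43 and 1.77 to 0.18 and 0.66 TPM) fell. Hoxa7 and 3 of these 4 regulators passed the filter only through growing oocytes and the fourth only through non-growing ones, so that the filter set their directions. Pax6, a regulator of eye and brain development, was at 2.69 and 1.06 TPM in growing control oocytes. Under noncanonical imprinting histone methylation of the egg silences the maternal copy in the embryo. Of 11 tested genes of this kind 7 fell and 1 rose (all genes 48.5% and 20.9%). Bbx went from 269 and 259.9 to 37.1 and 38.5 TPM and Slc38a1 from 40.4 and 50.1 to 14.1 and 20.6 TPM, while Matn1, a matrix protein gene, rose from 0.18 and 0.34 to 4.16 and 2.98 TPM. Matn1 passed the filter only through growing oocytes and 2 others of this list only through non-growing ones, so that the filter set these directions.

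Other germ cell and housekeeping lists moved in both directions. Of all genes tested 48.5% fell and 20.9% rose, and 34.4% and 30.1% after scaling. The piRNA, apoptosis and immediate-early counts as deposited lay near these shares. Of 23 piRNA genes, which silence transposons, 12 fell and 4 rose (9 and 7 after scaling): Gtsf1 fell from 4011 and 3684 to 1089.7 and 808 TPM and Tdrd12 rose from 15 and 12.5 to 60.9 and 60.7 TPM. Of 14 pluripotency and early germ cell genes 9 rose and 4 fell. Esrrb, a nuclear receptor of pluripotent cells, went from 0.030 and 0.010 to 19.6 and 24.9 TPM, Dppa2 from 3.34 and 4.67 to 55.4 and 64.8 TPM and Pou5f1, which encodes Oct4, from 50.6 and 53.7 to 73.9 and 115 TPM, whereas Zfp42 fell from 27.6 and 19.9 to 3.92 and 1.76 TPM. Esrrb passed the filter only through growing oocytes and had to rise. Of 5 tested CDK inhibitors 4 fell, among them Cdkn1a (48.8 and 67.9 to 6.4 and 7.1 TPM). In the apoptosis and checkpoint list 10 of 17 fell and 3 rose. Bax, which opens the mitochondrial membrane in cell death, fell from 197 and 219 to 53.7 and 54.7 TPM, and Bcl2l10, a survival factor of oocytes, rose from 75.7 and 91.3 to 926 and 1129.7 TPM (log2 change 3.61). Bcl2l1 was at 7.08 and 32.2 TPM in the growing libraries, its value in replicate 2 being far above that in replicate 1. Of 12 immediate-early and heat-shock genes 6 fell, among them Fos (26.9 and 28.6 to 1.77 and 1.96 TPM), and 4 rose, among them the chaperone gene Dnajb1 (68.2 and 89 to 156 and 221 TPM).

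The growth change without Eed was then compared with that of control oocytes, which share no library with it. Genes were filtered on the cKO libraries alone, so that those expressed only in control oocytes did not enter. In the control 2245 genes were higher (17% of those tested) and 7359 lower (55.6%), 72.5% in all, and the median was -0.69. After scaling the control had 3785 higher (28.6%) and 4132 lower (31.2%), 59.8% in all, and a median of -0.09. With the filter over all 8 libraries and no scaling, 2346 were higher and 7640 lower in the control among 14153 genes. Of the genes higher in cKO growth 74.2% were also higher in control growth (91.4% of the control's), and of those lower 92.4% were also lower (80.5% of the control's). Opposite calls were few, 18 genes higher in the cKO and lower in the control and 7 the other way (6 and 7 after scaling). Across the 13243 genes the 2 growth changes correlated at 0.91 (Pearson) and 0.87 (Spearman), as a description across genes, which are not independent and come from 1 table. For Plcb1 the change was 7.63 in the cKO and 5.95 in the control, for Fbxw28 8.21 and 7.09, for Selenop -4.73 and -4.34 and for Id1 -4.39 and -3.90, and for these 4 genes the difference did not pass (limma adjusted p of 0.295, 0.201, 0.61 and 0.611).

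**Figure D4:**
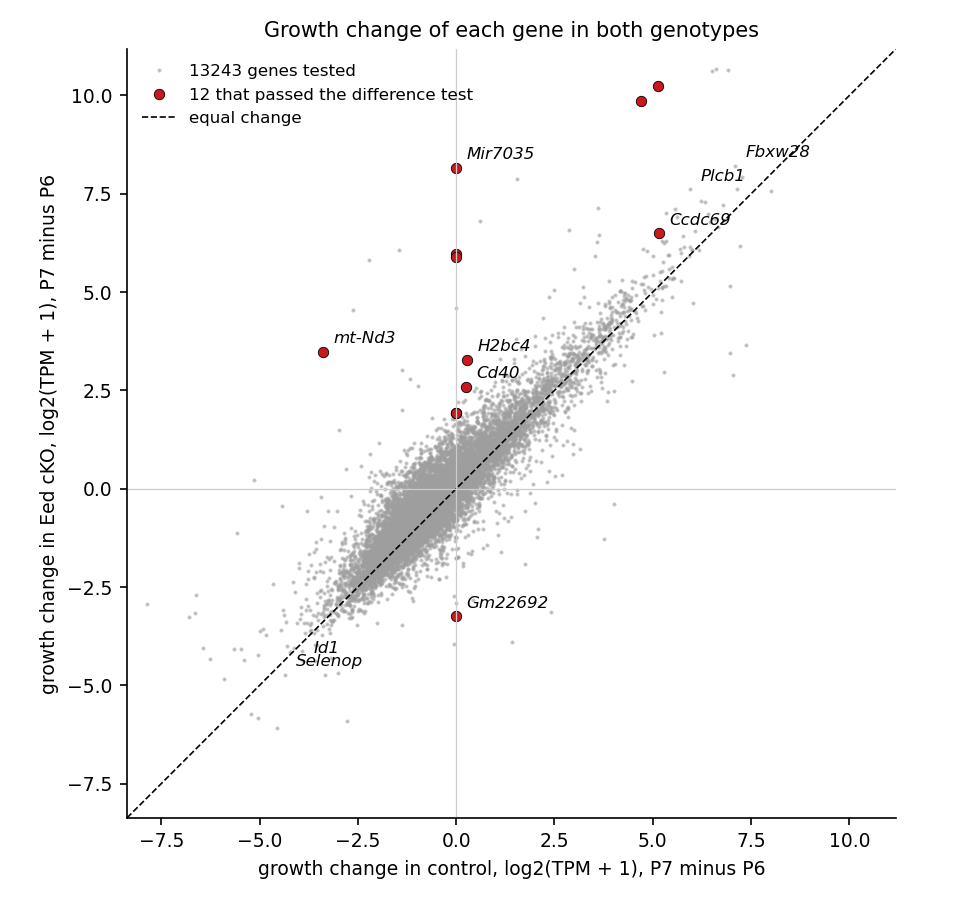
Growth change of each of 13243 genes (log2 of TPM + 1, P7 minus P6) in control on the horizontal and in Eed cKO on the vertical axis; the dashed line marks equal change and red points the 12 genes that passed the test of the difference. Most genes lie along the line, and 11 of the 12 red points lie above it.

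The difference of the 2 growth changes was called for 12 genes (0.0906% of those tested), 11 with the higher change in the cKO (0.0831%) and 1 with the lower (0.00755%), while 2150 genes had an unadjusted p under 0.05. After scaling 13 were called (0.0982%). The number rests on single libraries: without replicate 1 of the cKO growing oocytes 989 genes had a higher and 85 a lower change in the cKO, and without replicate 2 they were 7 and 1. The numbers were 1 and 1 without replicate 1 and 4 and 1 without replicate 2 of the cKO non-growing oocytes. They were 3 and 0 without replicate 1 and 6 and 1 without replicate 2 of the control growing oocytes, and 10 and 3 without replicate 1 and 5 and 1 without replicate 2 of the control non-growing ones. H2bc4, a histone H2B gene, was at 4.15 and 5.13 TPM in non-growing and 51.4 and 55.7 TPM in growing cKO oocytes, against 42.6 and 43.8 TPM and 59.3 and 47.2 TPM at the same stages of the control. It was low in the non-growing cKO libraries alone, and its growth changes differed by 2.99 (SE 0.21, limma adjusted p = 0.0101). This call was lost in 3 of 20 alternatives, a 2-fold minimum and the fits without replicate 2 of the control or replicate 1 of the cKO non-growing oocytes. Ccdc69, a coiled-coil protein gene, rose in both genotypes and started lower in the cKO, at 6.09 and 6.03 TPM and then 604 and 666 TPM in the cKO and 17 and 16.2 TPM and then 604 and 655 TPM in the control (difference 1.33, limma adjusted p = 0.0256, and 0.143 after scaling), and its call was lost in 14 of 20 alternatives, among them the replicate block and 7 of the 8 left-out libraries. Mfap2, a microfibril protein gene that passed only after scaling (limma adjusted p = 0.0394), was at 4.37 and 5.14 TPM in the non-growing cKO against 19.5 and 21.4 TPM in the control, and at 71.3 and 98.7 against 88.2 and 81.7 TPM in growing oocytes. For these 3 genes the growing libraries of the 2 genotypes overlapped.

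Cd40, a receptor of the TNF receptor family, had another pattern. The filter used the cKO libraries alone, and Cd40 passed it only through the growing ones. Its rise in the cKO was thus set by the filter, its call lends no separate support, and the call was lost without the filter. It was at 0.030 and 0.14 TPM in the non-growing and 5.47 and 5.64 TPM in the growing cKO libraries and was at 0.10 and 0.060 TPM and then 0.42 and 0.15 TPM in the control (difference 2.35, SE 0.22, limma adjusted p = 0.0231). The growing cKO libraries were thus apart from all others, but the call was lost in 12 of 20 alternatives, among them the replicate block and 7 of the 8 left-out libraries, with limma adjusted p from 0.0179 to 0.348. Triobp, an actin-binding protein gene, went from 8.75 and 9.14 to 23.5 and 30.8 TPM in the cKO and from 25.5 and 24.2 to 20.2 and 19.3 TPM in the control, and its difference of 1.81 passed only after scaling (limma adjusted p of 0.0661 as deposited and 0.0394 after scaling). Mael, a piRNA factor, fell from 507 and 554 to 156 and 172 TPM in the cKO and from 575 and 599.8 to 88.5 and 90.3 TPM in the control, and the difference of 1.01 did not pass (limma adjusted p = 0.0661). On the other side Ifitm2, an interferon-induced membrane protein gene, went from 59.2 and 39.7 to 5.49 and 6.1 TPM in the cKO and from 15 and 16.9 to 6.66 and 7.13 TPM in the control (difference -1.77, limma adjusted p = 0.209, not passed). Cklf, Smarca2, Fbxw10, Cfap47 and H2az1, the next in that direction, did not pass either. Their adjusted p from limma ran from 0.257 to 0.276.

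Of the 12 called genes 8 were short models of the class miRNA, and 7 of these have copies of at least 95% identity in many other genes (21 for Gm27597, 63 each for Gm22190 and Gm26506, 124 for Gm25872, 138 for Gm24135, 153 for Gm25959 and 435 for Gm22692), so that their values are uncertain. Mir7035, the eighth, lies wholly inside a transcript of Rasa4 on the same strand. Reads from Mir7035 and Rasa4 there cannot be told apart. Its mature forms are shown with the seed (bases 2 to 8) in capitals, from RefSeq (GRCm38.p6), because the model had the largest difference; the 2 seeds differ.
mmu-miR-7035-5p (chr5:136105527-136105547, plus strand): gGCUGGGAgaguggcucagaa
mmu-miR-7035-3p (chr5:136105583-136105603, plus strand): uCUGAGCCgcugucccugcag
Mir7035 was at 454 and 181 TPM in the growing cKO libraries and was listed at 0 in the 6 others, while Rasa4 was at 1.23 and 1.18 and then 147 and 154 TPM in the cKO and 2.38 and 1.85 and then 151 and 166 TPM in the control. The host gene thus rose alike in both genotypes (difference 0.42, limma adjusted p = 0.32). Gm25872 was listed at 0 in both non-growing cKO libraries and was at 813 and 1066 TPM in the growing ones, against 37.1 and 48.2 TPM and then 1134 and 1109 TPM in the control. mt-Nd3, a subunit of mitochondrial complex I, was listed at 0 in the non-growing cKO and in the growing control libraries and was at 6.93 and 14.7 TPM and 6.93 and 13 TPM in the other two groups. It has a near-identical nuclear copy, Gm28438. The 10 other mitochondrial mRNAs that passed all fell in cKO growth. Mir7035, Gm24135, Gm27597, Gm25872, Gm25959, Gm22190, Gm26506 and mt-Nd3 passed the filter only through the growing cKO oocytes. Gm22692 passed it only through the non-growing ones. The filter thus set their directions in cKO growth, and their calls lend no separate support.

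**Figure D5:**
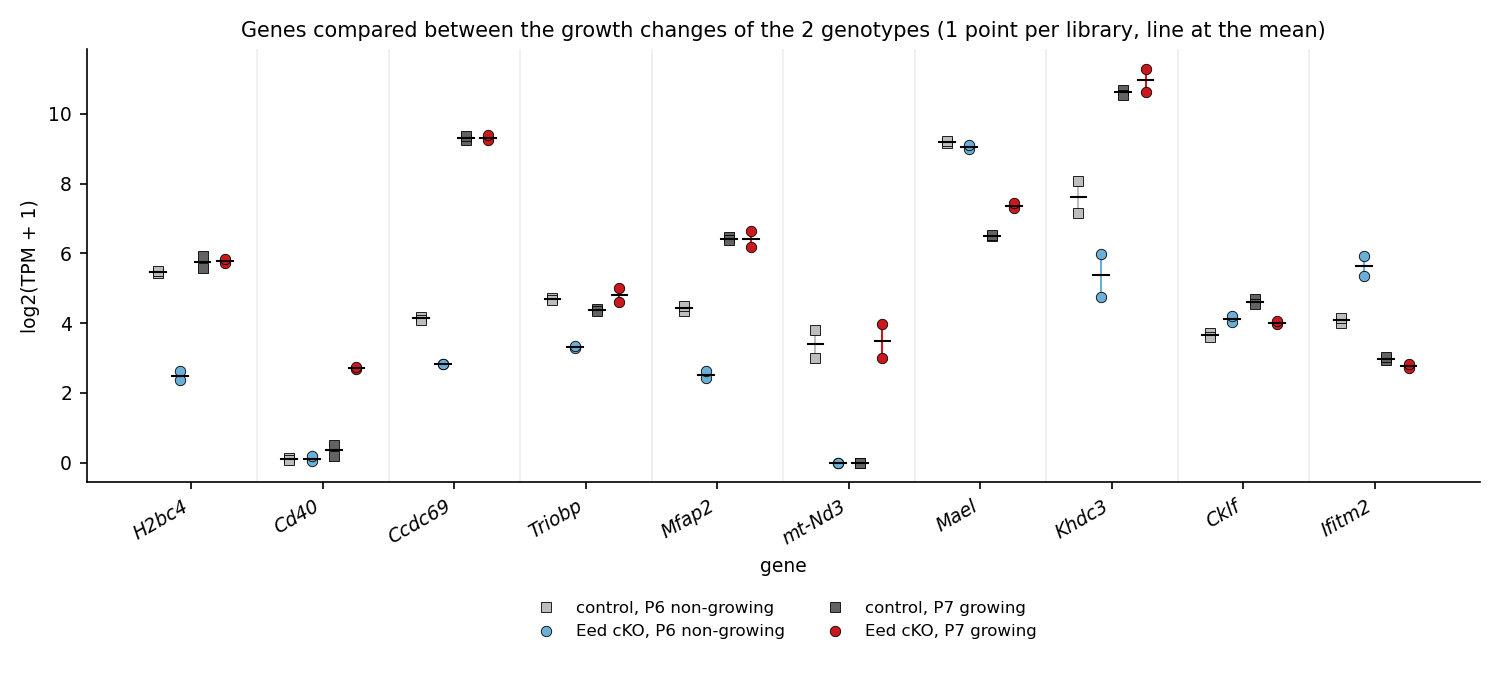
Levels (log2 of TPM + 1) of 10 genes in the 8 PRC2 libraries, with 1 point per library and a line at the mean of the 2 replicates; squares are control and circles Eed cKO. H2bc4, Ccdc69, Triobp, Mfap2 and Khdc3 were lower in both non-growing cKO libraries than in both control ones, and Cd40 was above 5 TPM in the 2 growing cKO libraries alone.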

How the data were processed

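RNA of mouse oocytes was sequenced in paired reads from libraries of the NEBNext Single Cell/Low Input kit, per the labels' protocols. The submitters' processing notes list RSEM 1.3.3, Subread 2.0.3 and Trim Galore 0.6.10, besides SAMtools and HISAT2, and the build GRCm38 (mm10). The deposited values are TPM by the authors, a share of the library's total, so that the depth and its precision are unknown. From them log2(TPM + 1) was computed, and 13243 models with at least 1 TPM in 2 of the 4 cKO libraries were tested by limma 3.58.1 (R 4.3.3, trend), two-sided, in 1 fit of the 8 PRC2 libraries, with Benjamini-Hochberg adjustment and a threshold of 0.05. The fit was repeated after trimmed-mean scaling (30% of log ratios and 5% of levels trimmed). A log2 change understates the change of low genes. The script was tested on simulated data with known changes. Names matched GENCODE vM21 for 55144 of 55385 models. Near-identical copies were sought with blastn 2.17.0 (95% identity over 50% of the transcript), and 37 of 163 genes had one. Named were the targeted gene, Plcb1, Fbxw28, Selenop and Id1, the 10 largest rises and falls called both ways with at least 5 TPM in the higher group, predicted models left out, up to 3 of each list by p, and the 6 smallest p in each direction of the difference; list members that show an exception were named after their values were seen. Members and lists were chosen with earlier results of these data known. Alternatives are in the closing section. Promoters came from RefSeq tables. A few genes that the rule names are not reported here.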

Additional observations from a re-analysis of the deposited data

Results flagged for a closer look

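The growth change differed between cKO and control by limma's test of the difference in 12 genes, with 2 libraries in each of the 4 groups. Values are differences of log2(TPM + 1) changes, cKO minus control. H2bc4 differed by 2.99 and Ccdc69 by 1.33, both lower in the non-growing cKO than in the non-growing control libraries, and Cd40 by 2.35, present in the growing cKO oocytes. Of 20 alternatives 3 lost the call for H2bc4, 14 for Ccdc69 and 12 for Cd40; for Ccdc69 and Cd40 these include the replicate block and 7 of the 8 left-out libraries. mt-Nd3 differed by 6.88, but it was listed at 0 in 4 of the 8 libraries, and this size depends on the pseudocount and is no fold. The same holds for the models of class miRNA, whose values were Mir7035 8.17, Gm24135 5.96, Gm27597 5.89, Gm25872 5.17, Gm25959 5.12, Gm22190 1.92 and Gm26506 1.92, with Gm22692 at -3.24 in the other direction. Gm22190 and Gm26506 had the same value in every library. Calls were lost in 5 of 20 alternatives for mt-Nd3, 2 for Mir7035, 0 for Gm25872, 9 each for Gm24135, Gm27597 and Gm22692, and 11 each for Gm25959, Gm22190 and Gm26506. After trimmed-mean scaling Ccdc69 no longer passed, and Triobp and Mfap2 did. Cd40, mt-Nd3 and these models of class miRNA passed the filter through 1 stage of the cKO alone, which set their direction in cKO growth.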

How the results depend on the processing

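Of 149 called growth changes of named genes in the cKO, 128 kept direction and call in all 21 alternatives, 20 lost the call in at least 1 and 3 (Cfap47, H2az1 and Ldhb) reversed in at least 1. Of the 155 genes followed, called or not, 7 reversed. In cKO growth 1122 genes were higher and 1953 lower with a 2-fold minimum. Leaving out each of the 8 libraries gave 2286 to 3208 higher and 5630 to 6597 lower in cKO growth and 1874 to 2387 higher and 6188 to 7739 lower in control growth. A lone library of a group was then assumed to vary like the others. In control growth 3785 were higher and 4132 lower after trimmed-mean scaling, 3380 higher after quantile normalization, 983 higher and 2231 lower with a 2-fold minimum, and 3864 higher and 4253 lower with scaling and a replicate block, a combination chosen after seeing the data. For the difference, 4 genes were higher and 0 lower with a pseudocount of 5, 3 and 0 with a 2-fold minimum, 7 lower (14 higher) with no filter, and 1 to 989 higher and 0 to 85 lower without 1 library. Whether replicate numbers pair the libraries is not known. Deviations of same-numbered libraries correlated at 0.31 between the 2 cKO groups compared here. The value was -0.02 to 0.09 in the 5 other pairs of groups. A replicate effect shared by the cKO libraries was not tested beyond the replicate block. With the replicate block 2866 genes were higher and 6506 lower in cKO growth, and in the difference 6 were higher and 0 lower. A minimum fold leaves fewer calls by construction; the cause of the other changes was not tested.

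Growth changes of Cfap47, Cklf and Eed in the cKO, all negative as deposited, turned to 0.084, 0.35 and 0.27 with trimmed-mean scaling (the same with the block), 0.032, 0.20 and 0.082 with quantile normalization and 0.10, 0.37 and 0.29 when scaled to protein-coding genes. Under quantile normalization H2az1 turned to 0.10 and Ldhb to -0.41. Pecam1, at 0.30 and not called, turned to -0.31 without replicate 1 of the non-growing and -0.075 without replicate 2 of the growing cKO oocytes and was 0.92 without replicate 2 of the non-growing ones. Ythdc2, at 0.11 and not called, turned to -0.028 without replicate 2 of the non-growing cKO oocytes and was 0.24 without their replicate 1. TPM gives no depth, so no floor for low values can be set.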
